A study of Mus musculus with 12 samples.

Results

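The genes described here are the mouse TRIM genes, chosen as every gene of the array's annotation whose symbol begins with Trim and a number. There were 61 of them, on 113 probes, among 19057 named genes. TRIM (tripartite motif) proteins carry a RING domain, a B-box and a coiled coil, and most of them are E3 ubiquitin ligases, the enzymes that choose which protein receives ubiquitin. The part behind the coiled coil differs between members and usually sets the target: a PRY-SPRY domain in most antiviral members, NHL repeats in a few others, and chromatin-binding domains in the nuclear cofactors. Several TRIM genes are themselves interferon-stimulated, and their products either act on viruses or tune the sensors that start the interferon response. TRIM proteins also meet autophagy, the process that the kinases encoded by Ulk1 and Ulk2 start, because some act as receptors or scaffolds for it.

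RNA came from C57BL/6J mouse embryonic fibroblasts, which are cultured connective tissue cells, hybridised to 12 Illumina bead arrays. The cells were Ulk1/2+/+ (wild type, WT) or Ulk1/2-/- (double knockout, DKO). Each genotype was left untreated or received mouse interferon beta (IFNβ), a type I interferon, at 2500 IU/ml for 6 h, with 3 arrays in each of the 4 groups. The study title names the place of ULK1 in the signalling of type I interferon as its subject. The labels do not say whether the replicates were separate cultures or how many embryos or lines they came from, so p-values measure only the spread between these samples. The number of arrays limits the precision of every value.

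Both knocked-out genes were detected on every WT array and on no DKO array, and in untreated cells Ulk1 was at least 3.44-fold and Ulk2 at least 2.78-fold lower in DKO. The genotypes also differed in markers that the knockout does not name. Xist, which is transcribed from the inactive X chromosome, was detected on 0 of 6 WT and 6 of 6 DKO arrays, and the Y-linked Eif2s3y on 6 of 6 WT and 0 of 6 DKO arrays, so genotype and the sex of the culture cannot be told apart. Of 15 fibroblast markers, 14 were detected on each WT array and 11 to 12 on each DKO array. The summed intensity of the 6 epithelial markers ranged from 118 to 133 on the WT arrays and from 300 to 395 on the DKO arrays, with Epcam on none. The corresponding sums were 173 to 185 against 362 to 565 for the skeletal muscle markers, with Myod1 and Des on none, and 943 to 1391 against 2026 to 2336 for the neural markers. Few genes carry these sums. In untreated cells mean log2 intensity was 4.47 in WT and 7.89 in DKO for Krt19, and 4.99 and 8.59 for Acta1. Myf5, Ckm, Actn2 and Tnnt3 were detected on 0 arrays. Of the neural markers only Nes and Map2 were detected. Of 9 leukocyte markers on the array only Cd14 and Cd3e were detected, and Ptprc, Csf1r and Itgam were detected on none. The part of these differences in any genotype difference below was not tested. The arrays also fell into 2 sets of 6 by median intensity, 86.5 to 87.9 and 97.5 to 99.7 intensity units, each with arrays of all 4 groups. Within a set a group has 1 or 2 arrays, and a lone array was assumed to vary like the others.

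A TRIM gene was tested if a probe of it was detected, with a deposited detection p under 0.01, on at least 3 arrays, and 27 of the 61 met this. Of these, 20 were detected on all 12 arrays and 7 on fewer. The 7 were Trim30a, Trim30d, Trim34a, Trim44, Trim46, Trim65 and Trim69. The remaining 34 were not tested, 32 of them because they were detected on 0 arrays, and Trim37 and Trim43b because they were detected on 1 untreated WT array only. Several of the undetected genes are known for other tissues: Trim63, Trim54 and Trim72 for striated muscle, Trim9 for neurons and Trim71 for early embryonic cells. The undetected genes of the antiviral branch were Trim6, Trim12c, Trim14, Trim30b and Trim38, on 0 arrays of any group, IFNβ-treated cells included. The others were Trim7, Trim10, Trim13, Trim15, Trim17, Trim24, Trim29, Trim31, Trim36, Trim40, Trim42, Trim43a, Trim50, Trim52, Trim58, Trim60, Trim61, Trim62, Trim66, Trim68, Trim75 and Trim80. A gene on 0 arrays was below what these probes resolve, which does not show that its RNA was absent. All values below are normalised log2 intensities, and a level of one gene cannot be set against that of another because probes differ in brightness. In bulk RNA, fewer cells that express a gene and less of its RNA per cell cannot be told apart.

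IFNβ raised the same 8 TRIM genes in both genotypes: Trim21, Trim25, Trim26, Trim30a, Trim30d, Trim34a, Trim56 and Trim69. The sizes ran from 0.55 for Trim69 to 2.92 for Trim21 on the log2 scale in WT cells among the genes with a signal in untreated cells. In WT cells Trim28 and Trim32 fell, and in DKO cells no TRIM gene fell by the test used. A gene was called at an adjusted p under 0.05, from limma moderated tests with Benjamini-Hochberg adjustment over all 8898 genes tested. Thus 8 of the 27 tested TRIM genes rose in WT cells, where 8.08% of all tested genes rose, and 2 fell, where 10.7% of all fell. In DKO cells 8 of 27 rose against 6.25% of all genes, and 0 fell against 5.16% of all. At an unadjusted limma p under 0.05, a looser threshold that cannot be set against these shares, 11 of the 27 differed in either direction. Trim30a, Trim30d and Trim34a had 0 of 3 untreated WT arrays detected, so they passed the detection filter through other groups. Among the 20 TRIM genes detected on all 12 arrays, 4 rose in WT and 4 in DKO cells. Of these 20, 6 and 4 were called in either direction, where 20.6% and 11.5% of all 7202 such genes were. The median change of the 27 genes was -0.05 in WT and 0.04 in DKO cells, against -0.08 and -0.07 over all tested genes. The 17 genes not called in WT cells changed by -0.42 to 0.32, and the 19 not called in DKO cells by -0.41 to 0.24. Within the lower array set all 8 rises were called in WT cells and 5 in DKO cells, without Trim26, Trim34a and Trim69. Within the higher set 6 were called in WT cells, without Trim30d and Trim69, and 7 in DKO cells, without Trim56. The falls of Trim28 and Trim32 were called in neither set, at -0.47 in both sets for Trim28 and at -0.40 and -0.35 for Trim32.

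**Figure D1:**
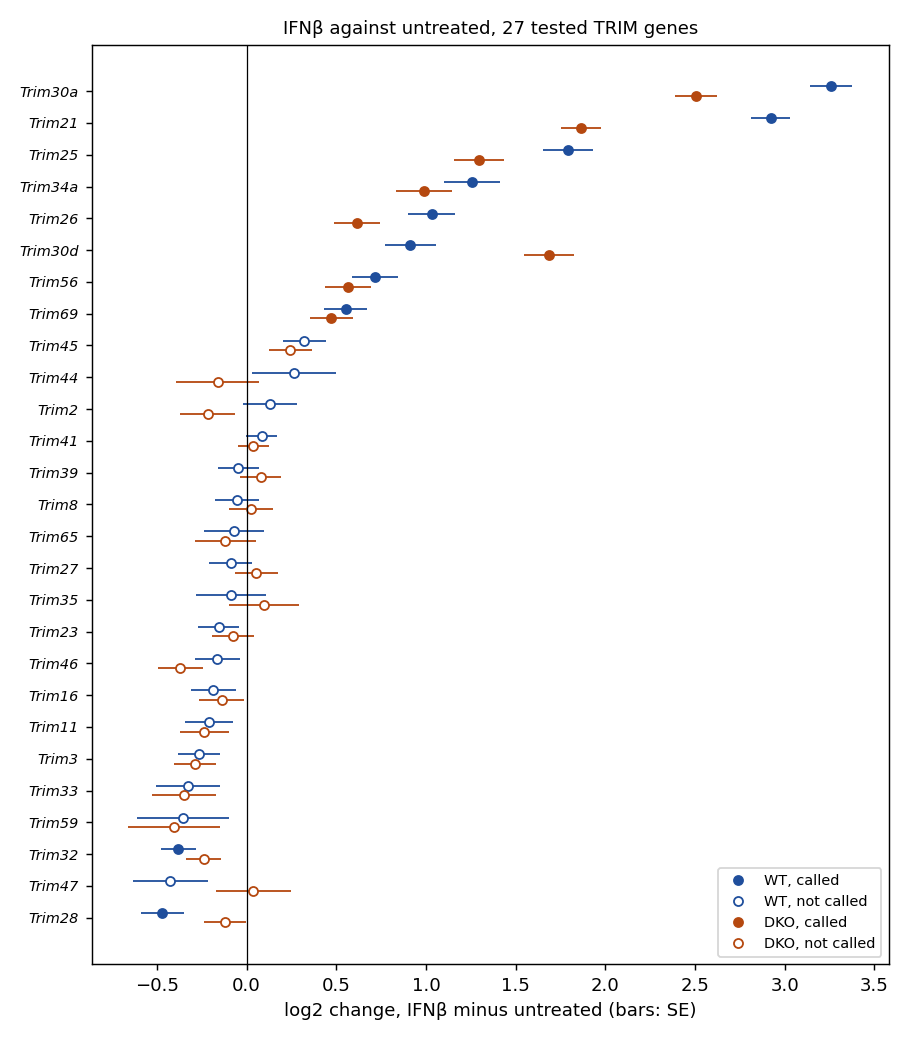
Log2 change after IFNβ (horizontal axis, bars are the SE of the fit) of each of the 27 tested TRIM genes, with WT in blue, DKO in orange, filled points called and open points not called. The 8 genes at the top are called in both genotypes, and Trim28 and Trim32 at the bottom are called in WT only, a contrast between genotypes that the interaction did not call for either gene.

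The promoters of the raised genes are shown because most of them hold letters known from interferon-responsive genes. The interferon-stimulated response element has a core of GAAANNGAA followed by a further A. This full core was searched on both strands of the RefSeq promoter table of build GRCm38.p6, from 250 bases before to 50 after each annotated start. The windows below run 5′ to 3′ in the direction of the gene, and capitals mark the core, which appears as its reverse complement where it lies on the opposite strand. For Trim25 the capitals mark the shorter letters GAAANNGAA, since the full core is absent from its window. Overlapping matches are joined, as in Trim21 and Trim26.
Trim21, chr7:102565453-102565529, minus strand: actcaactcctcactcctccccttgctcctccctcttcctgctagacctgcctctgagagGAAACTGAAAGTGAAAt
Trim25, chr11:88999334-88999412, plus strand: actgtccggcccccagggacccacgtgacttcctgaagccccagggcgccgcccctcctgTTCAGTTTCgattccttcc
Trim26, chr17:36836926-36837011, plus strand: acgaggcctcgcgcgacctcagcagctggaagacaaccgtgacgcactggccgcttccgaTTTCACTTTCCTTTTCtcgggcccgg
Trim30a, start 1, chr7:104446104-104446183, minus strand: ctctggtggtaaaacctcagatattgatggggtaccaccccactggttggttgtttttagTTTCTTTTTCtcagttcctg
Trim30a, start 2, chr7:104465210-104465289, minus strand: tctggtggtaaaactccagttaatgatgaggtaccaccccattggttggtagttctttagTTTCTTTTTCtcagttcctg
Trim30d, chr7:104507871-104507950, minus strand: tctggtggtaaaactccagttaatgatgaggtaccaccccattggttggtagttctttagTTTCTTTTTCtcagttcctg
Trim34a, chr7:104244407-104244486, plus strand: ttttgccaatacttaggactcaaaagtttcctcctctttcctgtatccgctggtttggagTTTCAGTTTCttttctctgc
Trim12c, chr7:104353359-104353438, minus strand: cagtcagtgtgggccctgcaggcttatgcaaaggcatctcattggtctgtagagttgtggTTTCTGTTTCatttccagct

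Counted over genes, 5 of the 8 raised TRIM genes (62.5%) held the full core: Trim21, Trim26, Trim30a, Trim30d and Trim34a. It was held by 1 of the 12 other tested TRIM genes with a promoter in the table (8.33%, Trim2), by 1 of 28 untested ones (3.57%, Trim12c) and by 1079 of all 27025 genes in the table (3.99%). The Trim30d window and the start 2 window of Trim30a are identical over 80 bases, so these genes are not separate instances. The core lay from +14 to +29 in Trim21, from -160 to -145 in Trim26, from -41 to -32 in Trim30d and from +11 to +20 in Trim34a, counted from +1 at the start site with no base 0. In Trim30a it lay from +3 to +12 at start 1 and from -36 to -27 at start 2, and in Trim12c from -29 to -20. The shorter letters in Trim25 lay from -9 to -1. With a C required behind the full core, 3 of the raised genes held a match, against 0.944% of all genes. With GAAANNGAA alone it was 6, against 9.76% of all. The windows of Trim56 and Trim69 held none of these letters. Of the genes holding the full core, Trim12c was the one that no array detected in any group.

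**Figure D2:**
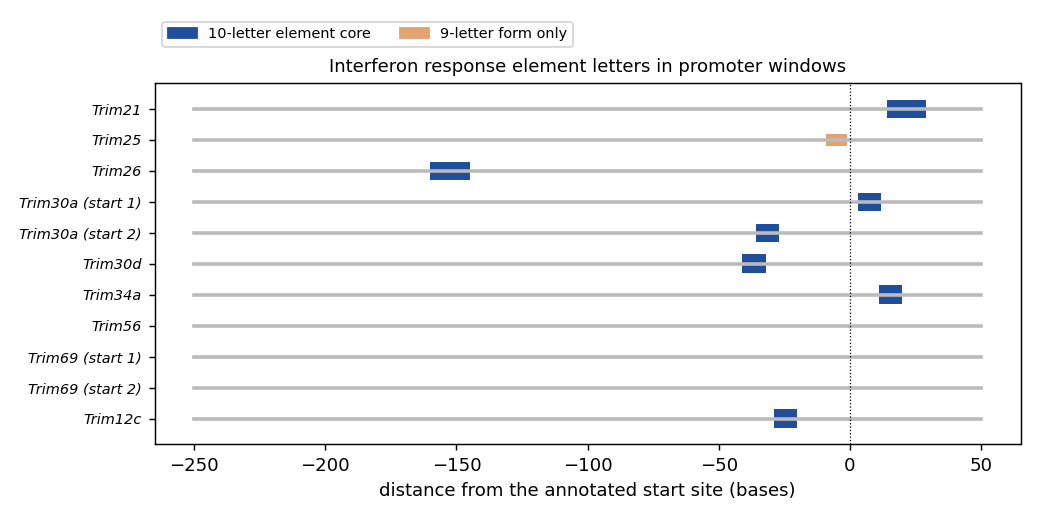
Position of the response element letters (blue, full core; orange, 9-letter form only) along the promoter windows of the raised TRIM genes and Trim12c, in bases from the annotated start site. Most blocks lie within 50 bases of the start, Trim26 holds its pair upstream from -160 to -145, and the windows of Trim56 and Trim69 are empty.

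By position, 4 of the 8 raised genes are on chromosome 7, where 12 of the TRIM genes lie. In the RefSeq gene order Trim34a is next to Trim6, and Trim30a next to Trim30d, within a run that also holds Trim12c and Trim30b. The raised and the undetected genes are therefore interleaved in this run. Trim21 lies elsewhere on the same chromosome. Trim26 opens a run on chromosome 17 with Trim15, Trim10, Trim40 and Trim31, all 4 of which were on 0 arrays. Members of the chromosome 7 run are close paralogs, and whether the Trim30a, Trim30d and Trim34a probes also bind RNA of a neighbour was not tested.

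Trim21 encodes a cytosolic antibody receptor that sends antibody-coated virus to the proteasome. It read 5.48, 5.31 and 5.32 on the untreated WT arrays and 8.36, 8.34 and 8.18 after IFNβ. On the DKO arrays it read 6.63, 6.53 and 6.58 untreated and 8.62, 8.47 and 8.24 after IFNβ. Untreated DKO arrays thus lay between untreated and treated WT arrays with no overlap, while treated arrays of both genotypes overlapped. In WT cells it rose 7.57-fold, or by 2.92 ± 0.11 as log2 with its SE (3 arrays a group, limma adjusted p = 1.8e-10), and in DKO cells 3.64-fold, or by 1.86 ± 0.11 (adjusted p = 2.9e-08). The size depends on the background correction and on the probe. Without correction, or in the authors' deposited log2 values, the rise was 1.75 in WT and 1.32 in DKO cells, both called. Another kept probe of Trim21 rose by 0.88 in WT cells (limma adjusted p = 0.0018) and gave 0.40 in DKO cells (adjusted p = 0.16). That probe is dim. It was detected on 0 of 3 untreated and 3 of 3 treated WT arrays, and on 1 of 3 untreated and 2 of 3 treated DKO arrays.

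Trim30a encodes a mouse protein that limits NF-kB activation by sending TAB2 and TAB3, the adaptors of the kinase TAK1, to degradation. It read 4.51, 4.27 and 4.27 on untreated WT arrays, where it was detected on 0 of 3, and 7.50, 7.72 and 7.60 after IFNβ. The untreated DKO arrays read 6.70, 6.64 and 6.45 and the treated ones 9.00, 9.28 and 9.04. No groups overlapped, and DKO arrays lay above WT arrays in both conditions. The rise in WT cells was at least 6.50-fold, a bound set against the lowest detected signal of each array because the untreated level was not measured (limma adjusted p = 1.2e-10). This bound holds on the background-corrected scale only: without background correction, or in the authors' deposited log2 values, the fitted change was 1.56 on the log2 scale, and still called. In DKO cells it rose 5.69-fold, by 2.51 ± 0.12 on the log2 scale (adjusted p = 3.3e-09).

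Trim30d, its neighbour on the chromosome, was detected on 0 of 3 untreated arrays of either genotype. It read 4.52, 4.32 and 4.31 in untreated WT cells, 5.42, 5.46 and 5.01 in treated WT cells, 4.72, 4.64 and 4.38 in untreated DKO cells and 6.39, 6.31 and 6.09 in treated DKO cells. The rise was at least 1.31-fold in WT cells (limma adjusted p = 3.7e-04) and at least 2.65-fold in DKO cells (adjusted p = 1.0e-06). Without background correction the fitted changes of Trim30d were 0.30 and 0.64 on the log2 scale, below these bounds and still called. Trim34a, whose human counterpart TRIM34 takes part in capsid restriction of retroviruses, read 4.32, 4.24 and 4.24 in untreated and 5.81, 5.18 and 5.58 in treated WT cells. In DKO cells it read 4.86, 4.60 and 4.39 untreated and 5.44, 5.62 and 5.76 treated. Treated and untreated arrays did not overlap in either genotype. The rise was at least 1.53-fold in WT cells, where it was detected on 0 of 3 untreated arrays (limma adjusted p = 5.5e-05), and 0.99 ± 0.16 on the log2 scale in DKO cells, where it was detected on 1 of 3 (adjusted p = 6.7e-04). Another kept probe of Trim34a rose by 0.96 and 0.75, from untreated levels detected on 0 of 3 arrays of either genotype. Without background correction the fitted changes of the probe used were 0.44 and 0.33, still called.

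Trim25 encodes the ligase known for modifying the viral RNA sensor RIG-I. It read 9.13, 8.64 and 8.54 in untreated and 10.64, 10.65 and 10.39 in treated WT cells, against 8.62, 8.60 and 8.61 in untreated and 9.99, 9.89 and 9.84 in treated DKO cells. The untreated arrays of both genotypes overlapped, whereas every treated DKO array lay below every treated WT array. It rose 3.47-fold in WT cells, by 1.79 ± 0.14 on the log2 scale (limma adjusted p = 3.2e-07), and 2.45-fold in DKO cells, by 1.29 ± 0.14 (adjusted p = 1.6e-05). Another kept probe of Trim25 rose by 1.22 and 1.12.

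Trim26, whose product has been described as a regulator of the transcription factor IRF3, read 8.45, 8.25 and 8.35 in untreated and 9.38, 9.59 and 9.17 in treated WT cells. In DKO cells it read 8.58, 8.30 and 8.39 untreated and 8.97, 9.23 and 8.92 treated. It rose by 1.03 ± 0.13 in WT (limma adjusted p = 5.5e-05) and by 0.62 ± 0.13 in DKO cells (adjusted p = 0.0059). Trim56 encodes a ligase that acts on the DNA-sensing proteins cGAS and STING. It read 6.39, 6.38 and 6.38 in untreated and 6.95, 7.23 and 7.12 in treated WT cells, against 6.02, 6.38 and 6.53 in untreated and 6.97, 6.90 and 6.74 in treated DKO cells. It rose by 0.72 ± 0.13 in WT (adjusted p = 0.0013) and by 0.56 ± 0.13 in DKO cells (adjusted p = 0.010), a call lost with median scaling (0.45, adjusted p = 0.13). Treated and untreated arrays of a genotype did not overlap for either gene.

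Trim69, whose human counterpart restricts some RNA viruses, read 4.85, 5.14 and 4.87 in untreated and 5.67, 5.39 and 5.46 in treated WT cells. It read 4.60, 4.89 and 4.69 in untreated and 5.12, 5.27 and 5.21 in treated DKO cells. It rose by 0.55 ± 0.12 in WT cells (limma adjusted p = 0.0047) and by 0.47 ± 0.12 in DKO cells (adjusted p = 0.018), with 1 of 3 untreated arrays detected in each genotype. The DKO call was lost without untreated replicate 1 (adjusted p = 0.081) or 3 (0.062) and without treated replicate 2 (0.075) or 3 (0.060) of the DKO arrays. It was also lost without background correction or in the authors' deposited values (0.14, adjusted p = 0.12), with an offset of 50 (adjusted p = 0.075) and with median scaling (0.078).

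**Figure D3:**
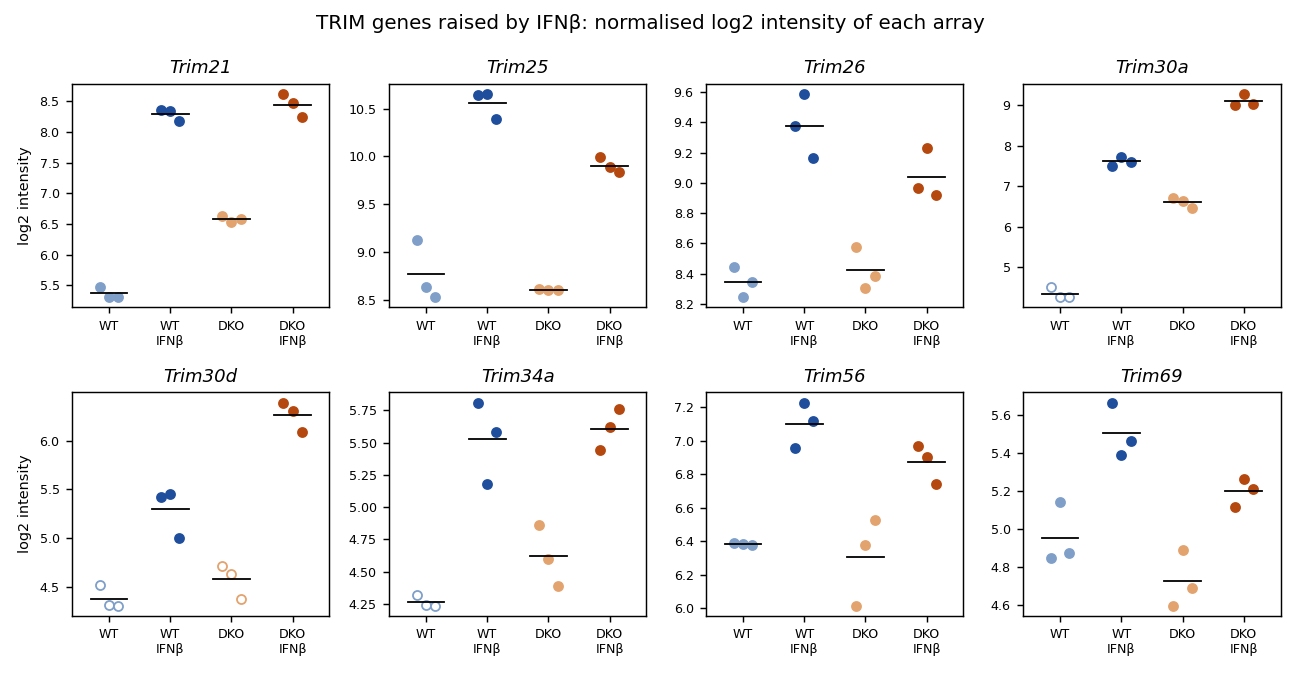
Normalised log2 intensity of the 8 raised TRIM genes on each of the 12 arrays (points) with the group mean (line), in panels with their own vertical scale, and with open points where a group was detected on 0 of 3 arrays. Treated arrays lie above untreated ones of the same genotype in every panel, and in untreated cells the DKO points of Trim21 and Trim30a lie well above the WT points.

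The genes that fell did so by less than most rises. Trim28 encodes KAP1, the corepressor through which KRAB zinc finger proteins silence retroelements. It read 11.28, 11.24 and 11.19 in untreated and 10.64, 10.95 and 10.72 in treated WT cells, against 11.73, 11.33 and 11.47 in untreated and 11.47, 11.30 and 11.39 in treated DKO cells. The WT arrays did not overlap and the DKO arrays did. Trim28 fell by 0.47 on the log2 scale in WT cells (SE 0.12, n = 3 per group, limma adjusted p = 0.013), a call lost without treated WT replicate 1 (adjusted p = 0.059), and gave -0.12 in DKO cells (adjusted p = 0.61).

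Trim32, an NHL-repeat ligase mutated in a human limb-girdle muscular dystrophy, read 9.90, 9.78 and 9.73 in untreated and 9.51, 9.38 and 9.38 in treated WT cells. In DKO cells it read 9.48, 9.38 and 9.38 untreated and 9.28, 9.19 and 9.05 treated. It fell by 0.38 in WT cells (SE 0.10, limma adjusted p = 0.016). The DKO change of -0.24 was not called (adjusted p = 0.15), although its arrays did not overlap either. The fall rests on the probe used, since the other kept probe of Trim32 gave -0.003 in WT cells (adjusted p = 0.99). It was also lost with cyclic loess (-0.30, adjusted p = 0.052), and without untreated WT replicate 1 (adjusted p = 0.063) or treated WT replicate 2 (0.050) or 3 (0.054).

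Pairing arrays by replicate number within genotype raised these counts. With that block, 15 TRIM genes were called in WT cells, 9 higher and 6 lower, and 12 in DKO cells, 8 higher and 4 lower. The added falls were Trim3, Trim33, Trim47 and Trim59 in WT cells and Trim3, Trim33, Trim46 and Trim59 in DKO cells, and the added rise was Trim45 in WT cells. The share of all genes called rose as well, to 31.5% in WT and 21.6% in DKO cells. With the array set as a block instead, 14 TRIM genes were called in WT cells, 9 higher and 5 lower, and 11 in DKO cells, 8 higher and 3 lower, where 29.3% and 19.3% of all genes were. Trim33 encodes a nuclear cofactor of SMAD signalling, and 2 of its other kept probes were called lower in WT cells without any block, at -0.43 (limma adjusted p = 0.015) and -0.56 (adjusted p = 0.027).

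The interaction asks whether the change after IFNβ differed between genotypes, computed as DKO minus WT. It was lower for 2 of the 27 TRIM genes, Trim21 and Trim30a, and higher for 0, where 1.05% of all tested genes were called, 0.742% lower and 0.303% higher. At an unadjusted limma p under 0.05, which cannot be set against these shares, there were 5 genes in either direction. For Trim21 the difference was -1.06 ± 0.16 on the log2 scale (95% interval -1.39 to -0.72, limma adjusted p = 0.0027). Its treated levels differed by 0.15 between genotypes, which was not called (adjusted p = 0.32), and its untreated levels by 1.21. Within the lower and the higher array set the interaction of Trim21 was -0.96 (adjusted p = 0.22) and -1.06 (adjusted p = 0.075), called in neither. Without background correction, or in the authors' deposited log2 values, it was -0.43 (limma adjusted p = 0.084), and the other kept probe gave -0.47 (adjusted p = 0.63). That probe was detected on 0 of 3 untreated WT and 1 of 3 untreated DKO arrays, so its changes start from levels mostly not measured. For Trim30a the difference was -0.75 ± 0.17 (95% interval -1.11 to -0.40, adjusted p = 0.048), but its WT rise is a bound and its sign turned with the background correction. It was 0.085 with an offset of 50 (adjusted p = 0.93) and 0.31 without background correction or in the authors' deposited values (adjusted p = 0.28).

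The Trim30a interaction was called in 3 of the 12 fits that each left out 1 array. The arrays whose absence ended the call were replicates 2 and 3 of untreated WT, 1, 2 and 3 of treated WT, 1 and 2 of untreated DKO and 1 and 3 of treated DKO, at adjusted p from 0.069 to 0.15. Trim30d had an interaction of 0.77 that was not called (limma adjusted p = 0.11), and the replicate block within genotype called it (adjusted p = 0.0090). Both of its untreated levels were below detection, so that difference compares treated levels against levels that were not measured. The other raised genes gave -0.50 for Trim25 (adjusted p = 0.42), -0.41 for Trim26, -0.27 for Trim34a, -0.15 for Trim56 and -0.08 for Trim69. A miss of the threshold does not show that the genotypes responded alike: the 95% interval for Trim25 ran from -0.92 to -0.07 and that for Trim56 from -0.55 to 0.24. Trim28, called lower after IFNβ in WT cells alone, had an interaction of 0.35 (95% interval -0.01 to 0.71, adjusted p = 0.57), and Trim32 one of 0.14.

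Other interferon-stimulated genes moved beside these. They were picked as such, with earlier results of these data known, so their counts describe the list and are no independent test. Of 10 tested antiviral reference genes, 10 rose in WT and 9 in DKO cells, where 8.08% and 6.25% of all tested genes rose. Of the same 10, 7 had a lower interaction, against 0.742% of all genes. Before treatment 9 of the 10 were higher in DKO cells, against 15.9% of all. The mean log2 intensity of the 10 was 7.38, 6.63 and 6.74 on the untreated WT arrays and 8.33 to 8.63 on the untreated DKO arrays. After IFNβ it was 10.98 to 11.04 in WT and 10.83 to 10.91 in DKO cells. Untreated WT replicate 1 was thus the highest of its group, as it also was for Trim21, Trim25, Trim26, Trim30a and Trim30d. The median interaction of the 10 genes was -1.78, against 0.01 over all tested genes. The part of these untreated levels in the Trim21 and Trim30a interactions was not tested.

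Genotype was compared in untreated and in treated cells separately. In untreated cells 5 of the 27 tested TRIM genes were higher in DKO, where 15.9% of all tested genes were higher, and 3 were lower, where 18% of all were lower. After IFNβ 5 were higher against 15.3% of all genes, and 3 lower against 16.5% of all. The 8 calls of 27 (29.6%) in each comparison were near the share over all genes, 33.9% untreated and 31.8% after IFNβ, which is no result about the family. The median difference of the 27 genes was 0.09 untreated and 0.05 treated, against -0.03 and -0.02 over all genes. Trim3, Trim11, Trim23 and Trim30a were called in both comparisons, each in the same direction. Genes not called differed by -0.41 to 0.36 untreated and by -0.34 to 0.29 after IFNβ. Within the array sets, 3 of the 8 untreated calls held in both, those of Trim11, Trim21 and Trim30a. After IFNβ 5 held in both, those of Trim11, Trim25, Trim28, Trim30a and Trim30d, and Trim35 held in the higher set. With the array set as a block, 11 TRIM genes were called in untreated cells, 7 higher and 4 lower, where 43.1% of all genes were called, and 9 in treated cells, where 40.4% were. Trim2, an NHL-repeat ligase of neurons, was among the added genes (0.34, limma adjusted p = 0.0081) and was called within the higher set too (0.45, adjusted p = 0.029). Trim28 was also added in untreated cells (0.32, adjusted p = 0.022). Trim47, which encodes a RING-type ligase, was not called over all arrays at -0.41 in untreated cells (limma adjusted p = 0.15). It was lower in untreated DKO cells within the lower set (-0.67, adjusted p = 0.032) and within the higher set (-0.48, adjusted p = 0.024), and with the set as a block (-0.58, adjusted p = 4.0e-04).

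**Figure D4:**
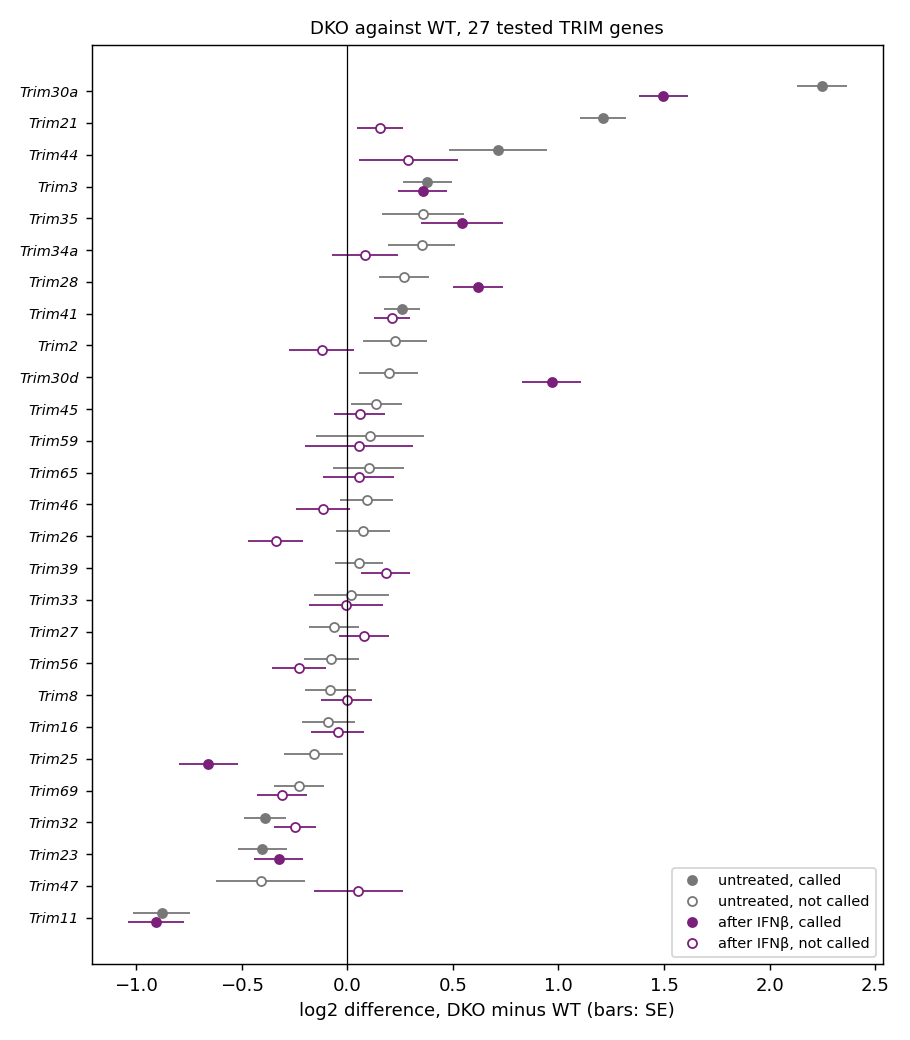
Log2 difference of DKO minus WT (horizontal axis, bars are the SE of the fit) of the 27 tested TRIM genes, in untreated cells (grey) and after IFNβ (purple), with filled points called and open points not called. Trim30a stands highest and Trim11 lowest in both conditions, and Trim21 is called in untreated cells only.

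Among the interferon-raised members, Trim30a was at least 3.22-fold higher in DKO cells before treatment on the background-corrected scale (limma adjusted p = 4.8e-09) and 2.82-fold higher after IFNβ (adjusted p = 2.9e-07). Without background correction the untreated difference was 0.91 on the log2 scale, below that bound and still called. Trim21 was 2.31-fold higher in untreated DKO cells, by 1.21 ± 0.11 (adjusted p = 1.5e-06) and by 0.56 without background correction, but its other kept probe gave 0.17 (adjusted p = 0.48). That probe was detected on 0 of 3 untreated WT and 1 of 3 untreated DKO arrays. Trim30d was 1.96-fold higher in treated DKO cells, by 0.97 ± 0.14 (adjusted p = 1.2e-04). This size depends on the processing too: over the alternatives it was as low as 0.41, called under each. Trim25 went the other way and was lower in treated DKO cells by a log2 difference of -0.66 ± 0.14 (adjusted p = 0.0025), where its other kept probe gave -0.13 (adjusted p = 0.71). The rest of the raised genes, Trim26, Trim34a, Trim56 and Trim69, were not called between genotypes in either condition. Some alternatives did call them. The other kept probe of Trim34a was higher in untreated DKO cells (0.38, adjusted p = 0.035). It was detected on 0 of 3 untreated arrays of either genotype, so that difference lies between levels that were not measured. Trim26 was lower in treated DKO cells in the authors' deposited values (-0.30, adjusted p = 0.038), and Trim69 with the array set as a block (-0.32, adjusted p = 0.038).

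Trim11, a ligase studied in the clearance of misfolded proteins, had the largest deficit in DKO cells among the 27 genes. It read 5.90, 6.25 and 6.29 in untreated and 6.06, 5.68 and 6.07 in treated WT cells, against 5.13, 5.28 and 5.38 in untreated and 5.01, 5.12 and 4.96 in treated DKO cells. Every DKO array lay below every WT array. The log2 difference was -0.88 ± 0.13 untreated (n = 3 per group, limma adjusted p = 1.9e-04) and -0.91 ± 0.13 after IFNβ (adjusted p = 1.5e-04), and it was called under every alternative run. Without background correction it was -0.37 and -0.34.

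Trim23 carries a GTPase domain of the ARF family and is known in human cells for activating TBK1 during virus-induced autophagy. It read 6.15, 6.29 and 6.02 in untreated and 5.99, 6.15 and 5.85 in treated WT cells, against 5.82, 5.74 and 5.69 in untreated and 5.57, 5.60 and 5.85 in treated DKO cells. The untreated groups did not overlap. It was lower in DKO cells by a log2 difference of -0.40 ± 0.12 untreated (limma adjusted p = 0.015) and -0.32 ± 0.12 after IFNβ (adjusted p = 0.047). The untreated call was lost without untreated WT replicate 2 (adjusted p = 0.071) or untreated DKO replicate 3 (0.057). The treated call held in 4 of the 12 fits that each left out 1 array, and was lost without replicate 1 of untreated WT, 1 or 2 of treated WT, any of untreated DKO, or 1 or 2 of treated DKO. It was also lost with the replicate number within genotype as a random block (adjusted p = 0.052), without background correction or in the authors' deposited values (-0.14, adjusted p = 0.093), and with an offset of 50, median scaling, cyclic loess, no detection filter or only the groups compared (adjusted p from 0.055 to 0.089). Median scaling ended the untreated call too (adjusted p = 0.053).

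Trim32, which fell after IFNβ in WT cells, was also lower in untreated DKO cells by a log2 difference of -0.39 ± 0.10 (limma adjusted p = 0.0078), with no overlap between the groups. Its other kept probe gave 0.037 (adjusted p = 0.86), so this difference too rests on the probe used. Trim28 was higher in treated DKO than in treated WT cells by 0.62 ± 0.12 (adjusted p = 0.0012), with all 3 DKO arrays above all 3 WT arrays, and this call held under every alternative run.

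Trim3 encodes an NHL-repeat ligase of the brain that binds a myosin V motor. It read 7.31, 7.05 and 7.17 in untreated and 6.94, 6.95 and 6.85 in treated WT cells, against 7.66, 7.34 and 7.67 in untreated and 7.41, 7.17 and 7.23 in treated DKO cells. DKO arrays lay above WT arrays in both conditions. It was higher in DKO by 0.38 ± 0.12 untreated (limma adjusted p = 0.021) and by 0.36 ± 0.12 after IFNβ (adjusted p = 0.030). Its other kept probe gave 0.30 (adjusted p = 0.12) and 0.22 (adjusted p = 0.25). The untreated call was lost without replicate 2 of untreated WT or 1 or 3 of untreated DKO, and the treated call without any treated WT array or replicate 1 or 3 of treated DKO, at adjusted p from 0.055 to 0.10. Median scaling ended the treated call (adjusted p = 0.084).

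The remaining genotype calls were small or dim. Trim41, which encodes a RING-type ligase, read 7.21, 7.14 and 7.25 in untreated and 7.29, 7.25 and 7.31 in treated WT cells, against 7.45, 7.45 and 7.49 in untreated and 7.55, 7.45 and 7.50 in treated DKO cells. Its DKO arrays lay above its WT arrays in both conditions, and the log2 difference of 0.26 ± 0.09 was called in untreated cells (limma adjusted p = 0.032). The call was lost without replicate 1 or 2 of untreated WT or any untreated DKO array, at adjusted p from 0.058 to 0.11. It was also lost with median scaling (adjusted p = 0.14) and with only the groups compared (0.075).

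Trim44, a member without a RING domain, read 4.68, 4.30 and 4.68 in untreated and 5.09, 4.37 and 5.00 in treated WT cells, against 4.97, 5.16 and 5.68 in untreated and 4.74, 5.51 and 5.07 in treated DKO cells. It was detected on 0 of 3, 1 of 3, 3 of 3 and 2 of 3 arrays of these groups. It was at least 1.28-fold higher in untreated DKO cells (limma adjusted p = 0.030), a call lost without replicate 2 of untreated WT (0.12) or 2 (0.054) or 3 (0.14) of untreated DKO. It was also lost without background correction or in the authors' deposited values (0.23, adjusted p = 0.062) and without the detection filter (adjusted p = 0.087). Its other kept probe, also detected on 0 of 3 untreated WT arrays, gave a difference of 0.45 (adjusted p = 0.028).

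Trim35 read 5.39, 5.78 and 5.99 in untreated and 5.82, 5.38 and 5.69 in treated WT cells, against 5.66, 6.24 and 6.35 in untreated and 6.05, 6.39 and 6.09 in treated DKO cells. The treated groups did not overlap and the untreated ones did. It was higher in treated DKO cells by 0.54 ± 0.19 (limma adjusted p = 0.046). Of its 3 other kept probes, 1 was called (0.65, adjusted p = 0.0020) and the others gave 0.36 and 0.22. The called probe was detected on 0 of 3 treated WT arrays, so its difference is against a level that was not measured. The call was lost without replicate 2 of untreated WT, 2 or 3 of treated WT, 2 of untreated DKO or any treated DKO array, at adjusted p from 0.053 to 0.17. It was lost as well with the replicate number as a random block (adjusted p = 0.059), without background correction or in the authors' deposited values (0.24, adjusted p = 0.065), with median scaling (0.16) and without the detection filter (0.11).

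**Figure D5:**
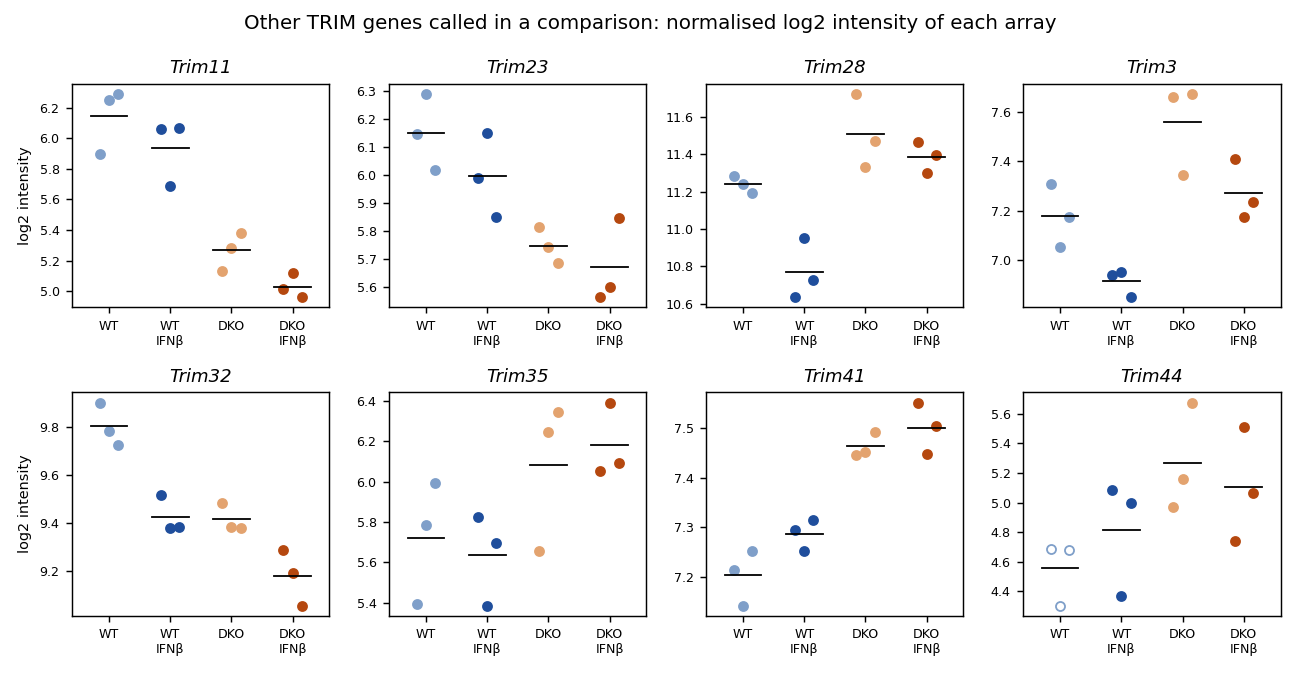
Normalised log2 intensity of the 8 other TRIM genes called in any comparison, on each of the 12 arrays (points) with the group mean (line), in panels with their own vertical scale, and with open points where a group was detected on 0 of 3 arrays. All DKO points of Trim11 lie below all WT points, and treated WT points of Trim28 lie below those of the other groups.

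The other 11 tested genes were called in no comparison of the main fit, which used no block. They were Trim2, Trim8, Trim16, Trim27, Trim33, Trim39, Trim45, Trim46, Trim47, Trim59 and Trim65. Some alternatives without a block did call members of this group. With the mean of the kept probes Trim33 fell in WT cells (-0.40, limma adjusted p = 0.0082). With median scaling Trim33 (-0.45, adjusted p = 0.025) and Trim46 (-0.40, adjusted p = 0.045) fell in DKO cells. Trim65, known in human cells for ubiquitinating the RNA sensor MDA5, changed by -0.07 in WT and -0.12 in DKO cells after IFNβ, and was called in neither. Trim8, a regulator of cytokine signalling through SOCS1, gave -0.05 and 0.02. Trim45 gave 0.32 (limma adjusted p = 0.080) and 0.24, with no overlap between the WT groups. Another kept probe of Trim27 was lower in untreated DKO cells by a log2 difference of -0.69 (adjusted p = 0.0010), while the probe used gave -0.06.

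Some TRIM proteins carry other symbols, and 3 such genes were tested beside the family, while Mefv was not detected on enough arrays. Pml, the scaffold of nuclear bodies, read 8.78, 8.62 and 8.53 in untreated and 11.36, 11.18 and 11.18 in treated WT cells, against 9.24, 9.07 and 9.03 in untreated and 11.32, 11.00 and 11.13 in treated DKO cells. It rose by 2.60 ± 0.11 in WT and by 2.04 ± 0.11 in DKO cells, and was higher in untreated DKO cells by 0.47 ± 0.11 (limma adjusted p = 0.0061). Mid2, a microtubule-bound ligase, fell by 0.85 and 0.66 and was higher in DKO cells by 1.11 untreated and 1.30 after IFNβ, all called. Mid1 was called in no comparison.

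The genes that TRIM proteins work with were read from lists chosen for their roles, with earlier results of these data known. Their counts describe the lists and are no independent test. Of 14 tested genes of the RIG-I pathway and its TRIM partners, 8 rose in WT cells, 8 rose in DKO cells and 1, Irf3, fell in WT cells. Of all tested genes 8.08% rose in WT and 6.25% in DKO cells, and 10.7% fell in WT cells. The median change of the 14 was 0.89 in WT and 0.82 in DKO cells. Rnf135, which encodes the RING ligase Riplet that modifies RIG-I as Trim25 does, rose by 2.34 ± 0.13 in WT and by 1.38 ± 0.13 in DKO cells. Its interaction was -0.96 (limma adjusted p = 0.016), and it was lower in treated DKO cells by a log2 difference of -1.39, in the direction seen for Trim25. Ddx58, which encodes RIG-I, rose by 2.58 and 1.91, and its regulator Dhx58 by 3.95 and 2.84. Zc3hav1, the RNA-binding antiviral protein that Trim25 assists, rose by 1.52 and 1.22. In untreated DKO cells 3 of the 14 were higher and 2 lower, where 15.9% of all genes were higher and 18% lower. In treated DKO cells 2 of the 14 were higher and 4 lower, where 15.3% of all were higher and 16.5% lower.

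Of 11 tested genes of ubiquitin conjugation, 3 rose in WT and 2 in DKO cells, where 8.08% and 6.25% of all tested genes rose. The median change of the 11 was -0.08 in WT and 0.10 in DKO cells. Uba7 and Ube2l6, the activating and conjugating enzymes of the ubiquitin-like modifier ISG15, rose by 4.98 and 3.83 in WT and by 3.27 and 2.73 in DKO cells. Both had a lower interaction, -1.70 and -1.10, and both were higher in untreated DKO cells, by 2.05 and 0.96, the pattern of Trim21 in these comparisons. Ube2e1 rose by 0.35 in WT cells.

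The targets of Trim30a were read through 6 tested genes of the TAK1 and IKK complexes. Their median change after IFNβ was 0.06 in WT and -0.07 in DKO cells, and Tab1 fell by 0.33 in WT cells. Tab3 was higher in DKO cells by 0.77 untreated and 0.68 after IFNβ, and Tab2 by 0.30 after IFNβ. Tab1 was lower in untreated DKO cells by a log2 difference of -0.27 (limma adjusted p = 0.046). These are 2 calls of 6 in each condition, near the shares over all genes. These are RNA levels, whereas the effect of Trim30a on both is described at the protein level. Of 9 tested autophagy genes that bind TRIM proteins or act with them, 1, Vcp, fell in WT cells after IFNβ, where 10.7% of all tested genes fell. The median change of the 9 was 0.02 in WT and -0.06 in DKO cells. In untreated DKO cells 1 of the 9 was higher and 3 were lower, where 33.9% of all genes were called. After IFNβ 1 was lower in DKO cells, where 31.8% of all were called. Becn1, which encodes the autophagy initiator Beclin 1, was lower in DKO cells by a log2 difference of -0.78 untreated and -0.60 after IFNβ, and Gabarapl1 and Vcp were lower and Ambra1 higher in untreated DKO cells.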

How the data were processed

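Per the labels, biotinylated cRNA was hybridised to a mouse bead array. The authors' deposited intensity values are linear and not normalized, 1 per probe on each array. A deposited detection p-value, in steps of 1 in 936, goes with each. The authors' second deposited table holds log2 values that follow the log2 of the intensity in rank, with a median of 6.53. It served as an alternative. Its results were the same as those of quantile normalization without background correction, so these alternatives are not separate checks. Their software was not given in the sources read.

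The platform annotation gave 34885 of 45281 probes 1 gene, 18 several and 10378 none. Background correction was by normexp, fitted from detection p-values (offset 16), and quantile normalization and log2 came next (limma 3.58.1, R 4.3.3, version 1.17.8 of data.table). A probe was kept where its detection p was under 0.01 on 3 or more arrays, and the probe with the highest mean stood for each of 8898 genes. Other kept probes were adjusted over 13737 named probes. A model of 4 group means (8 residual and 5.56 prior degrees of freedom) gave 5 contrasts, called where the Benjamini-Hochberg adjusted p, taken over all genes, was under 0.05. All members were eligible to be named, and those called in any contrast have the value of each array given. Where a group had 0 arrays detected, the fold is a bound: the mean of the brighter group over, per dim array, the lowest detected signal or the probe's own, whichever was higher. The fit was checked on simulated data.

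Same-numbered arrays of a genotype deviated together (6 pairs, correlation 0.34 to 0.64 across genes). The main fit used no block, so its p-values leave this pairing out. Numbers were read as pairs within a genotype only in the alternatives named as a replicate block. Across genotypes the correlation followed the array set. Members and gene lists were chosen with earlier results of these data known. Promoters and gene order came from RefSeq, build GRCm38.p6, and probes were not placed on it.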

Additional observations from a re-analysis of the deposited data

Results flagged for a closer look

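The change of Trim21 after IFNβ differed between genotypes by the test of the interaction (log2 difference -1.06, DKO minus WT, limma adjusted p = 0.0027). The call was lost without background correction or in the authors' deposited values (-0.43, adjusted p = 0.084). The other kept probe of Trim21, detected on 0 of 3 untreated WT arrays, was not called either (-0.47, adjusted p = 0.63). The treated arrays were higher than the untreated ones in 3 of 3 arrays of each genotype. The interaction of Trim30a also passed the threshold (-0.75, limma adjusted p = 0.048), with an untreated WT level that was not measured.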

How the results depend on the processing

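Over 36 pairs of a gene and a comparison, alternatives gave 938 values, of which 813 were called in the same direction, 121 were not called and 4 had the opposite sign, and 15 pairs were called under every alternative. The fit without background correction and the authors' deposited values gave the same results, so these totals count the same values again. The opposite signs were the Trim30a interaction with an offset of 50 (0.085) and without background correction or in the authors' deposited values (0.31 for both), and Trim32 untreated by its other kept probe (0.037). The count of TRIM genes with a called interaction was 0 without background correction, in the authors' values and within the lower and the higher array set, and 1 with an offset of 50, median scaling, cyclic loess, detection on all 12 arrays or no detection filter. Over those alternatives that used all arrays, 0.462% to 1.28% of all genes had a called interaction. Detection on all 12 arrays left 20 TRIM genes and gave 6 called after IFNβ in WT and 4 in DKO cells. With fewer genes tested, 7202, the shares of all genes called were 20.6% and 11.5%. Within an array set, an alternative chosen after seeing the data and with fewer arrays, counts were 6 in the higher set for IFNβ in WT cells, 5 in the lower set for IFNβ in DKO cells, 4 and 5 in the lower and higher set for genotype untreated, and 5 in the lower set after IFNβ. The share of all genes called was lower too in each of these cases. Leaving out 1 array gave 9 to 10 calls after IFNβ in WT, 7 to 9 in DKO cells, 1 to 2 interactions, and 4 to 8 and 5 to 8 genotype calls untreated and treated. Of all genes, 13.6% to 19.6%, 8.15% to 11.5%, 0.731% to 1.18%, 26.4% to 34.7% and 25.5% to 32.3% were called in these comparisons. The count of 4 came without replicate 2 of untreated WT or 3 of untreated DKO, and that of 5 without replicate 2 of treated WT or 1 of treated DKO. The replicate block within genotype called 15 genes after IFNβ in WT, 12 in DKO cells and 3 interactions, against 31.5%, 21.6% and 2.85% of all genes. As a random block it called 8 genotype differences untreated and 6 treated, without Trim23 and Trim35, against 33.3% and 31.5% of all genes. Median scaling split the calls 6 higher and 2 lower for IFNβ in DKO cells, where the median of all genes moved to -0.13, and 3 and 4 for genotype after IFNβ. With it 11.8% and 28.8% of all genes were called in these comparisons. The longer response element letters left 3 of 8 raised genes holding a match. A detection p under 0.05 gave 29 detected TRIM genes. Probes below detection limit Trim30a, Trim30d, Trim34a and Trim44 to bounds.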
